A study of Mus musculus with 24 samples.

Results

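The genes described are 10 receptors and surface glycoproteins that adjust T cell activation: the costimulatory receptors Cd28 and Icos, the inhibitory receptors Ctla4, Pdcd1 (PD-1), Lag3, Havcr2 (TIM-3), Tigit, Btla and Cd160, and Cd200. They were taken by name from a fixed list, without use of their measured values, and all 10 were found among the 55401 genes of the count table. Poly(A) RNA was sequenced from CD4 and CD8 T cells that had been sorted from spleens of C57BL/6 mice aged 12 weeks and then activated for 2 days with antibodies to CD3 and CD28. Each cell type came in 3 Pou2af1 genotypes with 4 libraries each, 24 libraries in 6 groups. Controls, called wild type here, lacked the CD4.Cre transgene and carried the floxed allele on both chromosomes by their genotype label, although their titles give +/+. Heterozygotes carried CD4.Cre and 1 floxed allele (fl/+), and knockouts carried CD4.Cre and were fl/fl. CD4.Cre acts from the thymocyte stage at which CD4 is first made, so it deletes in the precursors of CD4 and of CD8 cells. Cre was present in heterozygotes and knockouts and absent from wild type, so its effect and that of the Pou2af1 alleles cannot be told apart against wild type. All 6 groups received antibody to CD28, which engages the product of Cd28. The labels do not say that the 4 libraries of a group came from separate animals, so a p-value reflects only how far these samples differ among themselves, and that spread may be in part technical. By Xist against Ddx3y, each wild-type and knockout group held 1 female and 3 male libraries, and each heterozygous group held 2 of each. A group thus did not come from 1 animal, but the number of animals is not given.

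Full activation of a T cell needs a signal through the antigen receptor and a costimulatory signal, classically from CD28 when it binds CD80 or CD86 on an antigen-presenting cell. CTLA-4 binds the same ligands more tightly and restrains the response, and ICOS, a relative of CD28, is induced by activation and supports helper functions through its own ligand. PD-1, BTLA, LAG-3, TIGIT and TIM-3 are induced or maintained on activated cells and dampen signalling, and several of them stay high in chronically stimulated, exhausted T cells. BTLA and CD160 share the ligand HVEM, encoded by Tnfrsf14, while CD200 is itself a ligand that engages an inhibitory receptor on myeloid cells.

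Several members lie close together in the genome. On mouse chromosome 1 of GRCm38, Cd28 (60716800 to 60773359), Ctla4 (60887000 to 60915832) and Icos (60977927 to 61000320) follow each other on the plus strand, with 113.6 kb between the first pair and 62.1 kb between the second. Pdcd1 lies on the minus strand of the same chromosome (94038305 to 94052553). On chromosome 16, Btla (45224315 to 45257670, plus strand) and Cd200 (45382135 to 45409053, minus strand) are neighbours with 124.5 kb and 0 annotated genes between them, and Tigit (43648867 to 43664146, minus strand) lies 1560.2 kb before Btla. Lag3 is on chromosome 6 (124904361 to 124911705, minus strand), Havcr2 on chromosome 11 (46454935 to 46481255, plus strand) and Cd160 on chromosome 3 (96798763 to 96829351, minus strand). The sequences just upstream of the start sites of Cd200, Btla, Tigit and Cd160 are shown because these were the members with the largest called differences between CD4 and CD8 cells in wild type. Each is the 250 bases before the RefSeq start (build GRCm38.p6), printed 5′ to 3′ on the strand of the gene, with matches to a RUNX motif in capitals. The motif reads ACCACA in its forward direction, and on the opposite strand its letters are TGTGGT.
Cd200: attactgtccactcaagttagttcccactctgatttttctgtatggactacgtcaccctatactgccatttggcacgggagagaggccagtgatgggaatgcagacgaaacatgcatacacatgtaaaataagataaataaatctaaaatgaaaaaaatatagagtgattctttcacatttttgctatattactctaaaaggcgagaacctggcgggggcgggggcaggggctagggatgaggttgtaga
Btla: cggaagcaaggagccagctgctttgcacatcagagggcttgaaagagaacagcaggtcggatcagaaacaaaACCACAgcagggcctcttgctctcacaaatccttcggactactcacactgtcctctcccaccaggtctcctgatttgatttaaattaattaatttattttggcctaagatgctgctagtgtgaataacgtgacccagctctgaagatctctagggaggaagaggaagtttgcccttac
Tigit: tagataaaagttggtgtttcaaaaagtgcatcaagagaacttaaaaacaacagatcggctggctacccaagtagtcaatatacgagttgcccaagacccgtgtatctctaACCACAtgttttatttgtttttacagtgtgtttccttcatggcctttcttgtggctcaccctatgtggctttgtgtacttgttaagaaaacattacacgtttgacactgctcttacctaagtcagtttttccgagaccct
Cd160: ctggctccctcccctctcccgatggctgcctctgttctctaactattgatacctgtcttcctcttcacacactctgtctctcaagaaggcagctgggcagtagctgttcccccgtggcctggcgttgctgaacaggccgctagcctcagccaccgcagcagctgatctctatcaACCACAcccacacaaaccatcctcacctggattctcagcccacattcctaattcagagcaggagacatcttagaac

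These windows lie at chr16:45409054-45409303 (minus strand), chr16:45224087-45224336 (plus strand), chr16:43664185-43664434 (minus strand) and chr3:96829352-96829601 (minus strand). The RUNX match began 178 bases before the start site of Btla, 140 before that of Tigit and 76 before that of Cd160, whose further RefSeq start had one at 101 bases, and Cd200 had none. Among the other members with a RefSeq entry, Havcr2 had a match at 46 bases before its start, and Ctla4 and Pdcd1 had none. RUNX3 is the RUNX factor that maintains the CD8 lineage, and the same letters occur in 14% of all 32851 upstream windows of this length. The octamer ATGCAAAT, the element through which POU2AF1 and its partner factors bind DNA, was in 0 of the 8 windows of the 7 matched members and in 1.6% of all windows. GGAAA, the core of the NFAT site, occurred in the windows of Ctla4, Pdcd1, Tigit and a further start site of Cd160, and in 55.6% of all windows (both strands were searched for each motif, and no printed match overlapped another motif searched). A match describes letters only, and its absence says nothing about the factor. Cd28, Icos and Lag3 were not matched in the RefSeq table.

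Libraries held 11944120 to 21760793 counts assigned to genes. Levels are given as CPM, a library's counts scaled to a common total after TMM adjustment. Pou2af1 followed the labels: it averaged 38.4 ± 10.9 CPM in wild-type, 20.2 ± 4.28 in heterozygous and 2.19 ± 1.11 in knockout CD4 libraries, and 27.7 ± 6.18, 15.5 ± 1.40 and 1.71 ± 0.750 CPM in CD8 libraries (SD, n = 4 each). Cd4 ran from 444 to 541 CPM in CD4 libraries and from 0.212 to 1.74 in CD8 libraries, and Cd8a ran from 639 to 766 CPM in CD8 libraries and from 0 to 0.667 in CD4 libraries, as labelled. Within each cell type, replicates 1 and 2 stood apart from replicates 3 and 4 over many genes, and the labels do not say what the numbers mark. Values are therefore also given for each pair of replicate numbers.

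Per kb of annotated exon, the scale on which genes can be compared, Ctla4 was the member with the highest mean level in wild-type cells of either type, at 288 CPM per kb in CD4 and 170.4 in CD8 libraries, rank 61 and 155 of 12926 ranked genes. In CD4 cells Btla (168), Cd200 (146), Cd28 (90.8) and Icos (78.3 CPM per kb) followed, and Lag3, Tigit and Pdcd1 lay between 34.5 and 36.4 CPM per kb. In CD8 cells Cd28 (77.5), Tigit (74.2) and Icos (55.6 CPM per kb) came next, and Btla, Lag3, Cd200 and Pdcd1 lay between 30.3 and 41.9 CPM per kb. Cd160 was near the lower end in CD4 cells (1.07 CPM per kb, rank 10268) and reached 16.5 CPM per kb in CD8 cells (rank 3325). Havcr2 was the lowest member in either cell type, at 0.0475 and 0.172 CPM per kb.

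**Figure D1:**
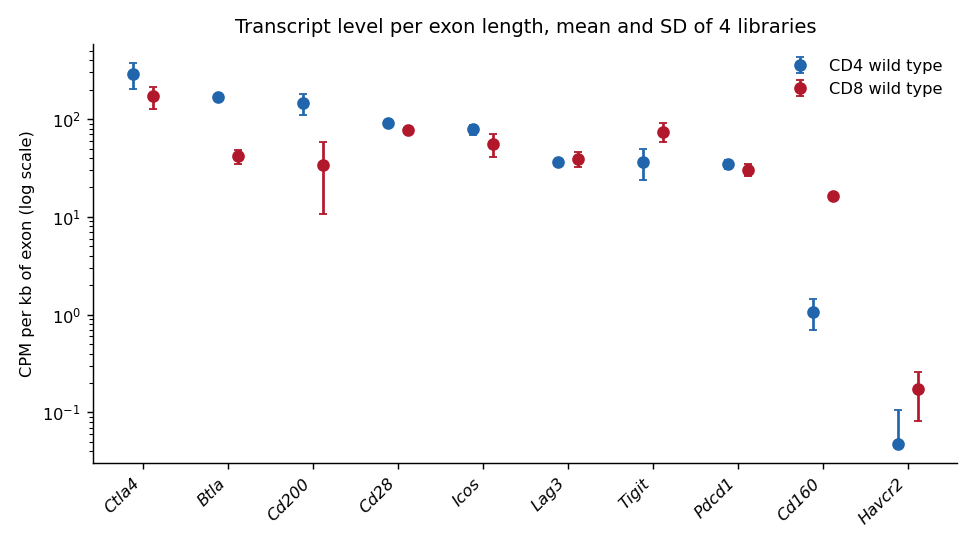
Mean level of each member in wild-type CD4 (blue) and CD8 (red) cells, in CPM per kb of exon on a log axis, with the SD of 4 libraries (the lower bar is not drawn where the SD exceeds the mean). Ctla4 is highest in either cell type, Btla and Cd200 sit lower in CD8 than in CD4 cells, and Cd160 moves the other way.

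**Figure D2:**
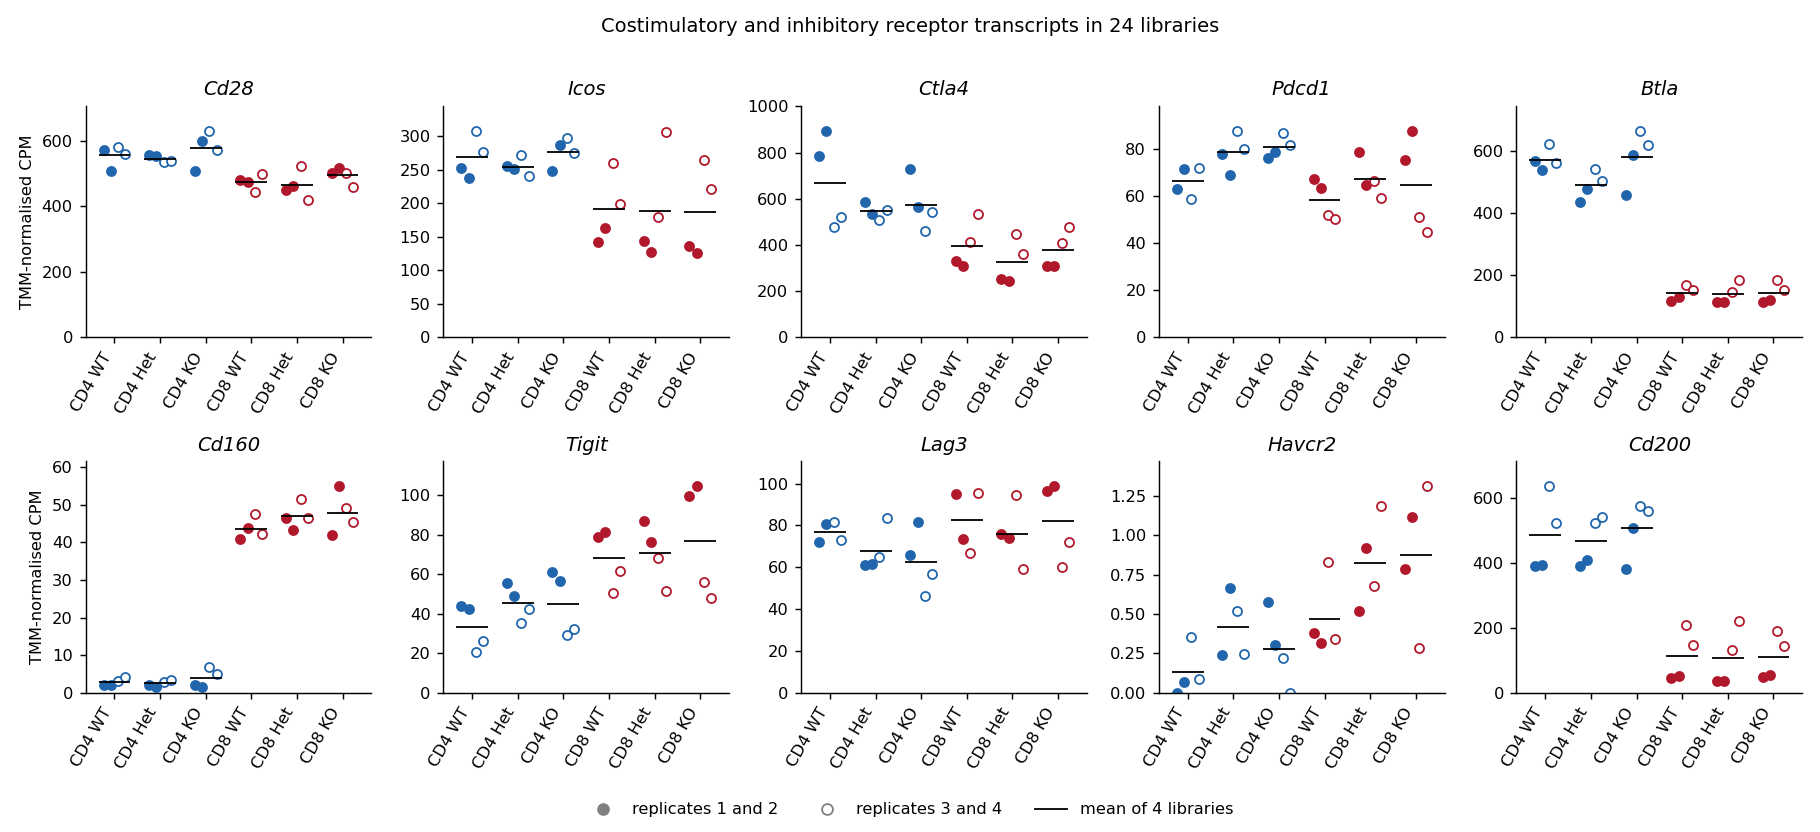
TMM-normalised CPM of each member in every library (points; filled for replicates 1 and 2, open for replicates 3 and 4) with the mean of each group (line), each panel on its own linear axis from 0. Btla, Cd200 and Cd160 do not overlap between the 12 CD4 and the 12 CD8 libraries, and in CD8 cells the open Cd200, Ctla4 and Icos points lie above the filled ones.

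CD8 cells were compared with CD4 cells of the same genotype with edgeR's quasi-likelihood test, adjusted by the Benjamini-Hochberg method over all 13288 genes tested, and a gene was called at an adjusted p under 0.05. In wild type 6 of the 10 members were called, Cd160 and Tigit higher and Cd28, Ctla4, Btla and Cd200 lower in CD8 cells, against 31.2% of all genes. In heterozygotes 5 of 10 were called, Cd160 higher and Cd28, Ctla4, Btla and Cd200 lower, with 35.0% of all genes called. In knockouts the same 5 members were called in the same directions, with 24.1% of all genes called. The 3 comparisons use separate libraries. In bulk RNA, fewer cells expressing a gene and less RNA per cell cannot be told apart.

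The receptors that share HVEM differed in opposite directions. Btla, an inhibitory receptor of B and T cells, stood in CD4 libraries (replicates 1 to 4) at 565, 537, 620.0 and 561 in wild-type, 435, 477, 540.5 and 501 in heterozygous and 457, 585, 664 and 618 CPM in knockout libraries. In CD8 libraries it stood at 117, 130.2, 169 and 152 in wild-type, 114, 112, 147 and 185 in heterozygous and 114, 119.7, 184 and 151 CPM in knockout libraries. Every CD4 library thus lay above every CD8 library, with the lowest CD4 value at 435 and the highest CD8 value at 185 CPM. The log2 change of CD8 over CD4 was -2.0 (SE 0.16, adjusted p = 6.12e-09) in wild type, -1.81 (SE 0.16, adjusted p = 2.53e-08) in heterozygotes and -2.03 (SE 0.16, adjusted p = 4.97e-09) in knockouts, with mean CD4 levels 4.01, 3.50 and 4.08 times the CD8 levels. Group means ran in the order CD4 knockout, wild type, heterozygote and then the CD8 groups, and each pair of neighbours within a cell type overlapped.

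Cd160, a glycolipid-anchored receptor known from NK cells and cytotoxic CD8 cells, had the opposite and larger difference. The 12 CD4 values were 2.15, 1.97, 3.06 and 4.16 in wild-type, 2.12, 1.67, 2.88 and 3.32 in heterozygous and 1.95, 1.59, 6.77 and 4.96 CPM in knockout libraries. The CD8 values were 40.9, 43.9, 47.5 and 42.3 in wild-type, 46.6, 43.2, 51.5 and 46.4 in heterozygous and 42.1, 54.9, 49.2 and 45.3 CPM in knockout libraries. Raw counts ran from 21 to 93 in CD4 libraries and from 542 to 790 in CD8 libraries, so Cd160 was detected in all 24, and the cell types did not overlap. The log2 change of CD8 over CD4 was 3.91 (SE 0.29, adjusted p = 1.31e-09) in wild type, 4.25 (SE 0.30, adjusted p = 6.13e-10) in heterozygotes and 3.65 (SE 0.29, adjusted p = 3.43e-09) in knockouts. Cd160 overlaps Pdzk1 on the other strand, and the strand setting of the counting is not given in the sources used here. Of 5 NK cell markers, summed levels ran from 30.9 to 94.3 CPM in CD4 and from 367 to 888 CPM in CD8 libraries, carried by Klrk1, Nkg7 and Eomes. The defining NK markers Ncr1 and Klrb1c were at 0 in 10 and 9 of the 12 CD8 libraries and did not exceed 0.121 CPM there. Their part in the Cd160 difference was not tested.

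Cd200 had the lowest log2 change of all members in each genotype and a wide spread within CD8 groups. Its CD4 levels were 389.5, 394, 636 and 524 in wild-type, 391, 408, 524 and 543 in heterozygous and 383, 508, 575 and 559.9 CPM in knockout libraries. Its CD8 levels were 46.1, 52.7, 208 and 148 in wild-type, 37.5, 35.5, 131 and 219.7 in heterozygous and 47.2, 55.8, 189.6 and 144 CPM in knockout libraries. All CD4 values, 383 CPM and above, lay over all CD8 values, 219.7 CPM and below, and within each CD8 group replicates 3 and 4 were above replicates 1 and 2. The log2 change of CD8 over CD4 was -2.09 (SE 0.53, adjusted p = 0.00497) in wild type, -2.14 (SE 0.54, adjusted p = 0.00356) in heterozygotes and -2.21 (SE 0.54, adjusted p = 0.00397) in knockouts, with an interval of -3.22 to -0.97 in wild type. In replicates 1 and 2 only it was -2.99, -3.45 and -3.11 in the 3 genotypes, and in replicates 3 and 4 only it was -1.70, -1.61 and -1.76, called by edgeR in all 6 cases.

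Tigit, which binds PVR in competition with the costimulator CD226, was called higher in CD8 cells in wild type. Levels in CD4 cells were 44.0, 42.6, 20.7 and 26.1 in wild-type, 55.4, 48.9, 35.3 and 42.3 in heterozygous and 61.1, 56.9, 29.5 and 32.5 CPM in knockout libraries. Levels in CD8 cells were 79.0, 81.6, 50.5 and 61.8 in wild-type, 87.0, 76.6, 68.5 and 51.8 in heterozygous and 99.8, 105, 56.0 and 48.1 CPM in knockout libraries. Replicates 1 and 2 were above replicates 3 and 4 in every group. The cell types overlapped over all libraries and did not overlap within either pair of replicate numbers. The log2 change of CD8 over CD4 was 1.03 (SE 0.29, adjusted p = 0.00876) in wild type and was called, and was 0.64 (SE 0.28, adjusted p = 0.0853) in heterozygotes and 0.78 (SE 0.28, adjusted p = 0.0506) in knockouts. Replicate numbers were treated as pairing CD4 with CD8 libraries of a genotype, which the labels do not state. In a fit blocked on the number the heterozygote and knockout changes also passed, at 0.64 (edgeR adjusted p = 0.000132) and 0.77 (edgeR adjusted p = 3.34e-05).

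Ctla4 was lower in CD8 cells, and within pairs of replicate numbers it was called in replicates 1 and 2. The CD4 libraries held 786, 894, 478 and 523 in wild-type, 586, 536, 509 and 553 in heterozygous and 729, 563, 461 and 541 CPM in knockout libraries. The CD8 libraries held 332, 307, 414 and 535 in wild-type, 252, 242, 446 and 362 in heterozygous and 310.4, 307, 409.9 and 479 CPM in knockout libraries. Replicates 1 and 2 of CD4 reached from 536 to 894 CPM and those of CD8 from 242 to 332, while replicates 3 and 4 overlapped, from 461 to 553 CPM in CD4 and from 362 to 535 in CD8. The log2 change was -0.75 (SE 0.22, adjusted p = 0.0125) in wild type, -0.75 (SE 0.22, adjusted p = 0.0117) in heterozygotes and -0.61 (SE 0.22, adjusted p = 0.0492) in knockouts. In replicates 1 and 2 only it was -1.39, -1.18 and -1.06 and was called by edgeR in each genotype. In replicates 3 and 4 only it was -0.08 (edgeR adjusted p = 0.738), -0.39 (adjusted p = 0.0532) and -0.17 (adjusted p = 0.417), so the call was lost in each. The knockout call was also lost in the fit blocked on replicate number (-0.61, edgeR adjusted p = 0.0721) and without any 1 of 6 of its 8 libraries, those other than CD4 replicate 3 and CD8 replicate 4 (-0.65 to -0.47, edgeR adjusted p = 0.0668 to 0.167). The wild-type call was lost without CD4 replicate 2, the library with the highest Ctla4 level of all (-0.58, edgeR adjusted p = 0.0593). Ctla4 overlaps the pseudogene Rpl18-ps1.

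Icos averaged 268 ± 30.9 CPM in CD4 and 191 ± 51.6 CPM in CD8 wild type (SD, n = 4). By library, CD4 cells held 252, 237, 308 and 276 in wild-type, 255, 250.5, 272 and 241 in heterozygous and 248, 286, 297 and 275 CPM in knockout libraries. By library, CD8 cells held 142, 164, 259.9 and 198 in wild-type, 144, 127, 180.1 and 306 in heterozygous and 136, 126, 265 and 222 CPM in knockout libraries. The CD8 values split by replicate number, from 126 to 164 CPM in replicates 1 and 2 and from 180.1 to 306 in replicates 3 and 4, while CD4 values kept within 237 to 308. The log2 change did not pass: it was -0.49 (SE 0.24, adjusted p = 0.118) in wild type, -0.43 (SE 0.24, adjusted p = 0.168) in heterozygotes and -0.57 (SE 0.24, adjusted p = 0.0877) in knockouts. In the blocked fit it passed in each, at -0.52, -0.52 and -0.63 (edgeR adjusted p = 0.0375, 0.0387 and 0.0189). In replicates 1 and 2 only it was -0.68, -0.90 and -1.03 and was called by edgeR in each, and in replicates 3 and 4 only it was -0.35, -0.08 and -0.24 with adjusted p of 0.246, 0.809 and 0.447. Icos overlaps the predicted gene Gm37039 on the same strand.

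Cd28 varied little among libraries. CD4 libraries stood at 574, 509, 581 and 560.1 in wild-type, 558, 553, 534 and 539 in heterozygous and 509, 601, 631 and 574 CPM in knockout libraries. CD8 libraries stood at 481, 476, 444 and 498 in wild-type, 449, 462, 524 and 420.3 in heterozygous and 501, 518, 501 and 459 CPM in knockout libraries. The coefficient of variation within a group was 2.07% to 9.44%, and CD4 and CD8 libraries overlapped over all 24. The difference was small and was called lower in CD8 cells in each genotype, with log2 changes of -0.23 (SE 0.07, adjusted p = 0.0163) in wild type, -0.24 (SE 0.07, adjusted p = 0.0114) in heterozygotes and -0.23 (SE 0.07, adjusted p = 0.021) in knockouts. In replicates 1 and 2 only the change was -0.18 in wild type and -0.12 in knockouts and did not pass in edgeR (adjusted p = 0.114 and 0.325), and in replicates 3 and 4 only it was -0.28 in wild type and -0.18 in heterozygotes and did not pass (adjusted p = 0.0834 and 0.207). The wild-type call was also lost without CD8 replicate 3 (adjusted p = 0.0617), and the knockout call without CD4 replicate 2, CD4 replicate 3 or CD8 replicate 4 (edgeR adjusted p = 0.0564, 0.077 and 0.076), with no filter on low counts (0.0977) or with only the knockout libraries in the fit (0.0963).

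Pdcd1, the receptor of PD-L1 and PD-L2, was not called between the cell types in any genotype. Values in CD4 libraries were 63.3, 71.8, 59.1 and 72.0 in wild-type, 78.2, 69.3, 87.9 and 80.2 in heterozygous and 76.2, 79.0, 87.0 and 82.1 CPM in knockout libraries. Values in CD8 libraries were 67.4, 63.7, 52.1 and 50.5 in wild-type, 78.8, 64.9, 66.3 and 59.5 in heterozygous and 75.5, 87.9, 51.4 and 44.8 CPM in knockout libraries. The log2 change of CD8 over CD4 was -0.19 (SE 0.15, adjusted p = 0.371) in wild type, with an interval of -0.51 to 0.13, -0.23 (SE 0.15, adjusted p = 0.265) in heterozygotes and -0.32 (SE 0.15, adjusted p = 0.139) in knockouts. In replicates 3 and 4 only edgeR called it lower in CD8 cells in each genotype (-0.36, -0.42 and -0.81), while in replicates 1 and 2 only the changes were -0.04, -0.04 and 0.07. Without CD8 replicate 2 the knockout change was -0.50 and passed (edgeR adjusted p = 0.0123).

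Lag3, whose product binds MHC class II, ran from 46.5 to 83.4 CPM in CD4 and from 59.1 to 98.8 CPM in CD8 libraries, and the cell types overlapped. Its log2 change was 0.11 (SE 0.18, adjusted p = 0.681) in wild type, 0.16 (SE 0.18, adjusted p = 0.502) in heterozygotes and 0.39 (SE 0.18, adjusted p = 0.12) in knockouts. The wild-type interval was -0.26 to 0.47. The knockout change passed in replicates 1 and 2 only (0.41, edgeR adjusted p = 0.0262) and without CD4 replicate 2 (0.54, edgeR adjusted p = 0.0354) or CD8 replicate 3 (0.51, edgeR adjusted p = 0.0457). Havcr2, which encodes TIM-3 and is known from late type 1 and exhausted cells, was barely detected. Its raw counts were 0 to 10 in CD4 libraries, of which 6 of 12 held 3 counts or fewer, and 4 to 19 in CD8 libraries. A count of 3, the floor taken per library, equals 0.138 to 0.251 CPM here and covers counting error only. Havcr2 passed the filter on low counts over all libraries but not in the CD4 libraries alone, so it was in the test only through its level in CD8 cells. Its log2 change was 1.87 (SE 0.73, adjusted p = 0.0542) in wild type, 0.97 (SE 0.56, adjusted p = 0.192) in heterozygotes and 1.60 (SE 0.60, adjusted p = 0.0561) in knockouts. Some settings put it past the threshold, among them the blocked fit in knockouts (1.56, edgeR adjusted p = 0.0461) and wild type without CD4 replicate 3 (2.86, edgeR adjusted p = 0.0146). The filter favours this direction, so nothing is read from those p-values.

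**Figure D3:**
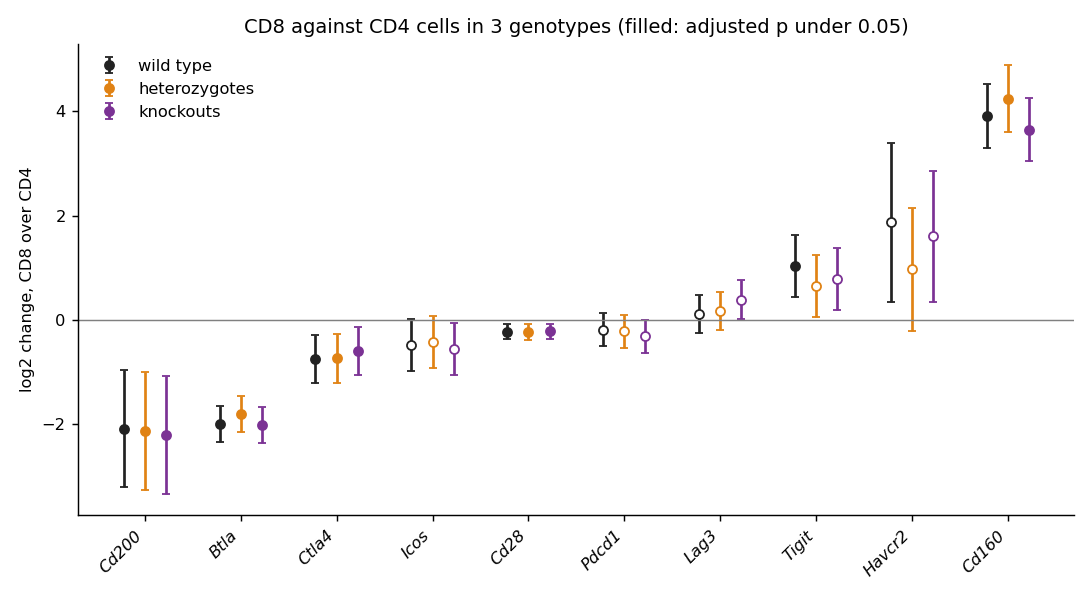
log2 change of CD8 over CD4 cells in each genotype (points, filled where the adjusted p was under 0.05) with an approximate unadjusted 95% interval from the SE. Cd200, Btla, Ctla4 and Cd28 are filled below 0 and Cd160 is filled above 0 in all 3 genotypes, while Tigit is filled in wild type.

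Over all genotypes, 3 of the 10 members (Btla, Cd200 and Cd160) had no overlap between the 12 CD4 and the 12 CD8 libraries, as did 10% of the 13288 genes tested. The fit blocked on replicate number called 7 members in each genotype, Havcr2 among those in knockouts, and also called more of all genes, 4903 against 4149 in wild type, 5336 against 4646 in heterozygotes and 3872 against 3198 in knockouts. In heterozygotes without CD8 replicate 4, the library with an Icos level of 306 CPM, Icos also passed (-0.76, edgeR adjusted p = 0.01).

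The study asks what loss of Pou2af1 does to activated T cells, and no member passed the test between genotypes. For CD4 knockouts against wild type 0 of 9 tested members were called by edgeR, with 0.0708% of all genes called, and 1 had an unadjusted p under 0.05. For CD8 knockouts 0 of 10 were called, with 0.0634% of all genes called, and 0 had an unadjusted p under 0.05. Heterozygotes against wild type gave 0 members called in CD4 (0.0865% of all genes; 2 members with an unadjusted p under 0.05) and 0 in CD8 (0.0634% of all genes; 0 members). Knockouts against heterozygotes, both with Cre, gave 0 in CD4 (0.0157% of all genes; 1 member with an unadjusted p under 0.05) and 0 in CD8 (0.0159% of all genes; 0 members). The difference of the knockout effect between CD8 and CD4 cells was called for 0 members (0.00753% of all genes; 0 with an unadjusted p under 0.05), and so was that of the heterozygote effect (0.00753% of all genes; 0 members). DESeq2, and limma on the deposited normalized values, also called 0 members in each of these 8 comparisons. Over all genes, an unadjusted p under 0.05 was held by 310 and 1103 of 12719 in CD4 knockouts and heterozygotes against wild type. In CD8 cells these were 364 and 220 of 12612. For knockouts against heterozygotes they were 465 in CD4 and 862 in CD8 cells. For the knockout and heterozygote effects compared between cell types they were 228 and 538 of 13288. Pou2af1 itself was called by edgeR in knockouts against wild type, in CD4 and in CD8 cells. In heterozygotes against wild type it did not pass. Its log2 change there was -0.94 in CD4 (SE 0.25, edgeR adjusted p = 0.332) and -0.84 in CD8 cells (SE 0.21). The test thus did not call changes of that size in the targeted gene. With so few genes called, a count of 0 is not a result about the members.

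Pdcd1 was the member with the lowest unadjusted p in these comparisons. Its CD4 level averaged 81.1 ± 4.62 CPM in knockout, 78.9 ± 7.64 CPM in heterozygous and 66.5 ± 6.43 CPM in wild-type libraries (SD, n = 4 each). CD4 knockout libraries began at 76.2 CPM and heterozygotes at 69.3, and wild-type libraries ended at 72.05 CPM. Pdcd1 was picked for its low p, and the share of all genes that separate in this way was not computed. The separation is a description only. The log2 change in CD4 knockouts was 0.28 (SE 0.08, edgeR unadjusted p = 0.00585, adjusted p = 1.0, interval 0.09 to 0.47), and its adjusted p stayed between 0.746 and 1.0 over the alternatives. In CD4 heterozygotes, which share the wild-type libraries with that comparison, it was 0.24 (edgeR unadjusted p = 0.0148, adjusted p = 0.486). Btla averaged 488 ± 44.2 CPM in CD4 heterozygotes against 571 ± 35.1 CPM in wild type, a log2 change of -0.23 (edgeR unadjusted p = 0.0404, adjusted p = 0.558), and 0.25 in knockouts over heterozygotes (edgeR unadjusted p = 0.0293, adjusted p = 1.0). Heterozygotes held more female libraries than the other genotypes, and the part of sex in these changes was not tested.

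No other member had an unadjusted p under 0.05 in these comparisons. Without Havcr2, the 9 changes ran from -0.299 to 0.43 in CD4 knockouts and from -0.0765 to 0.181 in CD8 knockouts against wild type, and from -0.303 to 0.444 and from -0.291 to 0.203 in heterozygotes. The intervals, of median half-width 0.342 in CD4 and 0.432 in CD8 knockouts, reached from -0.657 (Ctla4) to 1.37 (Cd160) in CD4 knockouts and from -1.54 to 1.42 (both Cd200) in CD8 knockouts. Changes up to those bounds lay within the intervals that 4 libraries a group give in these fits. The fits held a mean per group and no term for the replicate number. The split by replicate number is therefore counted in the spread behind these intervals and p-values. Intervals from fits with such a term are not given. In CD4 heterozygotes in replicates 1 and 2 only, Ctla4 was called lower than wild type (-0.58, edgeR adjusted p = 0.0342), while in replicates 3 and 4 only the change was 0.09 (edgeR adjusted p = 0.665) and over the other alternatives its adjusted p ran from 0.329 to 0.916. All genes called in that comparison ran from 11 to 264 over settings other than leaving out a library. By Xist against Ddx3y, 1 of 4 wild-type and 2 of 4 heterozygous CD4 libraries were female, so the sexes were not balanced. The part of sex in that call was not tested.

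**Figure D4:**
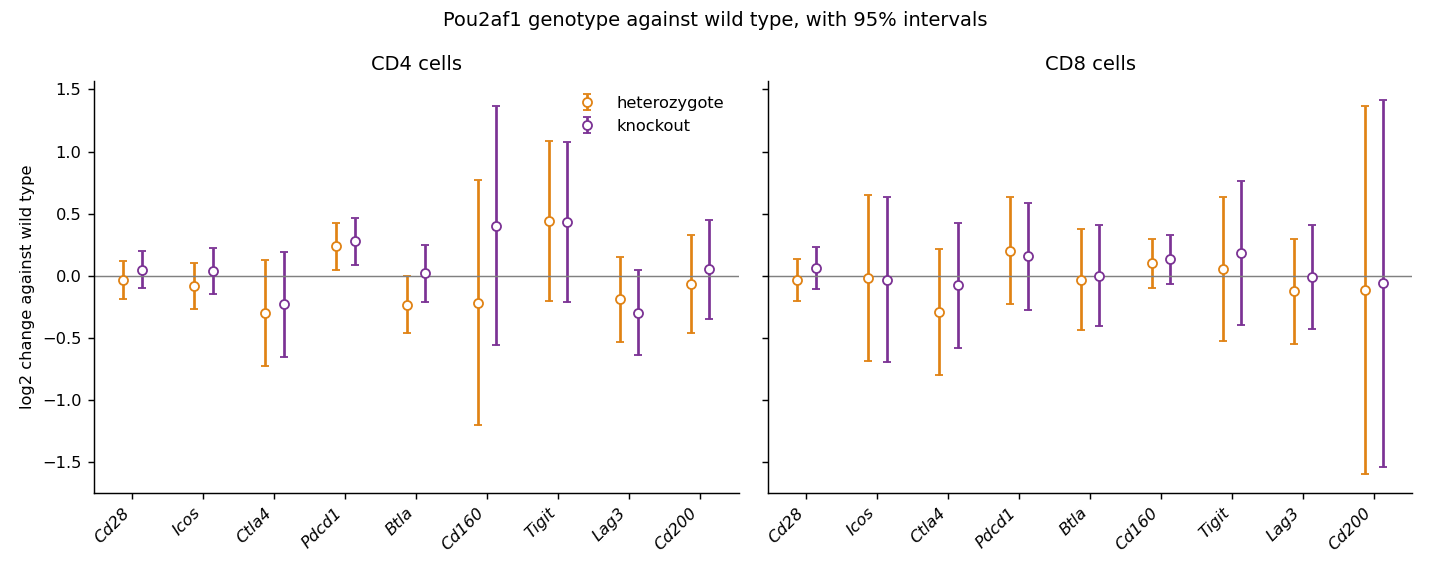
log2 change of heterozygotes (orange) and knockouts (purple) against wild type in CD4 (left) and CD8 cells (right) for the 9 members other than Havcr2, with approximate unadjusted 95% intervals from the SE. No point passed adjustment over all genes, Pdcd1 in CD4 cells lies above 0 with intervals that leave out 0, the Btla interval of CD4 heterozygotes ends just below 0, and Cd200 in CD8 cells has the widest intervals.

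Replicates 3 and 4 were compared with replicates 1 and 2 over the 3 genotypes, 6 libraries against 6 in each cell type. The grouping was chosen with these data known, so the counts and p-values describe the libraries and are not an independent test. In CD4 cells edgeR called 5 of 10 members, Cd160, Cd200 and Btla higher and Tigit and Ctla4 lower in replicates 3 and 4, with 31.4% of all genes called. In CD8 cells it called 6 of 10, Cd200, Icos, Ctla4 and Btla higher and Tigit and Pdcd1 lower, with 23.4% of all genes called. The difference of the change between CD8 and CD4 was called for 5 of 10, positive (CD8 minus CD4) for Cd200, Ctla4 and Icos and negative for Cd160 and Pdcd1, with 5.86% of all genes called. For Pdcd1 that sign reflects -0.44 in CD8 and 0.09 in CD4 cells. The 779 genes behind that share numbered 406 without CD8 heterozygote replicate 2 and 1352 without CD8 heterozygote replicate 3, the lowest and highest with 1 library left out. Without overlap between the 6 and the 6 libraries were Tigit, Cd200 and Cd160 in CD4 (14.5% of all genes) and Icos, Ctla4, Tigit, Btla and Cd200 in CD8 (9.24% of all genes).

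Cd200 had the largest change of all members in CD8 cells. Its CD8 level ran from 35.5 to 55.8 CPM in replicates 1 and 2 and from 131 to 219.7 in replicates 3 and 4, a log2 change of 1.93 (SE 0.12, adjusted p = 4.52e-09). In CD4 cells it ran from 383 to 508 and from 524 to 636 CPM, a log2 change of 0.44 (SE 0.12, adjusted p = 0.0056), and the difference between the cell types was 1.49 (SE 0.17, adjusted p = 8.34e-05) in edgeR. The mean in CD4 cells was thus 9.0 times that in CD8 cells in replicates 1 and 2 and 3.23 times in replicates 3 and 4.

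Ctla4 moved in opposite directions, -0.40 (SE 0.09, adjusted p = 0.00287) in CD4 and 0.60 (SE 0.09, adjusted p = 0.000162) in CD8 cells, so the mean of CD4 over CD8 cells was 2.34 in replicates 1 and 2 and 1.16 in replicates 3 and 4. Icos was called in CD8 cells at 0.77 (SE 0.10, adjusted p = 2.18e-05) and not in CD4 cells at 0.13 (SE 0.10, adjusted p = 0.357). Tigit was lower in replicates 3 and 4 by like amounts, -0.74 (SE 0.10, adjusted p = 2.35e-05) in CD4 and -0.64 (SE 0.10, adjusted p = 0.000142) in CD8 cells in edgeR, with a difference of 0.10 and an interval of -0.20 to 0.40. Its mean in CD8 over CD4 cells was 1.71 and 1.81 in the first and second pair of replicates. Cd160 was called in CD4 cells, at 1.10 (SE 0.16, adjusted p = 2.78e-05), where its mean went from 1.91 to 4.19 CPM, and was 0.06 (SE 0.10, adjusted p = 0.707) in CD8 cells. The tested difference for Cd160 was -1.04 (SE 0.18, adjusted p = 0.00258). Cd28 and Lag3 were not called in either cell type. The Btla call in CD4 cells, 0.20 (SE 0.07, adjusted p = 0.0313) in edgeR, was lost without wild-type replicate 2 or 3, heterozygote replicate 1 or 3 or knockout replicate 1 or 3, with adjusted p from 0.0525 to 0.103.

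**Figure D5:**
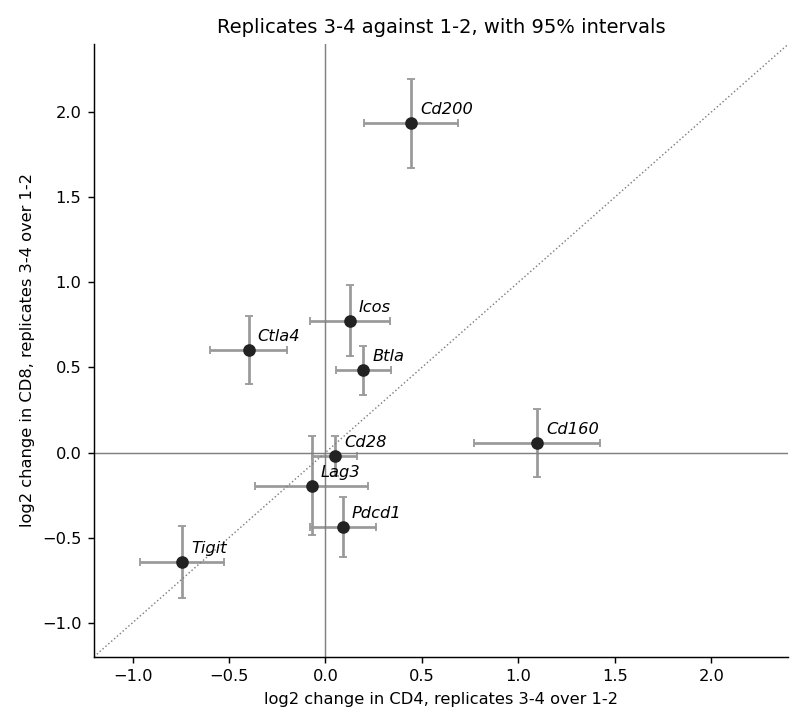
log2 change of replicates 3 and 4 over replicates 1 and 2 in CD4 cells (x) and CD8 cells (y) for the 9 members other than Havcr2, with approximate unadjusted 95% intervals from the SE. The dotted line marks equal change. Tigit lies near the line, Cd200, Ctla4, Icos and Btla (whose difference was not called) lie above it and Cd160 and Pdcd1 below it.

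Marker levels of other cells are set beside these replicate differences. The regulatory T cell factor Foxp3 averaged 1.11 ± 0.567 and 3.48 ± 1.19 CPM in replicates 1 and 2 and replicates 3 and 4 of CD4 cells, and 0.385 ± 0.127 and 2.20 ± 1.78 CPM in CD8 cells (SD, n = 6 each). Ikzf2, of the same list, averaged 13.1 ± 1.64 and 19.6 ± 3.34 CPM in CD4 cells, and in CD8 cells went the other way, with 75.7 ± 12.9 and 52.3 ± 10.7 CPM (SD, n = 6 each). Nrp1, also listed, ran from 11.7 to 18.7 and from 21.6 to 34.2 CPM in CD4 cells. In CD8 cells Nrp1 ran from 8.3 to 16.9 and from 17.4 to 29.1 CPM. Tnfrsf18 overlapped between the replicate pairs in both cell types. The summed level of all 6 regulatory T cell markers, most of it Il2ra, ran from 1107 to 1253 and from 1183 to 1628 CPM in CD4 cells and from 972 to 1275 and from 1124 to 1508 CPM in CD8 cells. The summed level of 4 plasma cell markers ran from 94.1 to 122 and from 137 to 155 CPM in CD4 cells and from 82.3 to 142 and from 155 to 205 CPM in CD8 cells, nearly all from Xbp1, with Mzb1 at 0 in 7 of 12 libraries of each cell type and at most 0.138 CPM. Sdc1, also of that list, ran from 0.471 to 1.87 and from 2.11 to 3.13 CPM in CD4 cells. In CD8 cells Sdc1 ran from 0.353 to 0.891 and from 1.52 to 2.49 CPM. For B cells the 6 markers summed to 6.86 to 16.1 and 6.47 to 33.95 CPM in CD4 cells and to 13.7 to 25.7 and 7.12 to 13.6 CPM in CD8 cells. The 5 dendritic cell markers, most of it Zbtb46, summed to 7.51 to 9.20 and 4.58 to 12.6 CPM in CD4 cells and to 7.52 to 17.9 and 3.83 to 6.25 CPM in CD8 cells. In CD8 cells Zbtb46 ran from 6.73 to 16.7 and from 3.61 to 4.65 CPM, and Itgax from 0.792 to 3.25 and from 0.0688 to 1.53 CPM. Flt3 did not exceed 0.181 CPM and Xcr1 did not exceed 0.0755 CPM in CD8 cells. Siglech was at 0 in all 12 CD4 and 11 of 12 CD8 libraries. The 5 NK cell markers summed to 30.9 to 94.3 and 34.1 to 71.1 CPM in CD4 cells and to 564 to 888 and 367 to 584 CPM in CD8 cells. Within the CD4 sums, markers moved in opposite directions. The CD4 median of Klrk1 was 24.5 and 5.2 CPM, that of Eomes 14.4 and 30.1 CPM and that of Nkg7 12.7 and 17.6 CPM. The 6 follicular helper markers, most of it Sh2d1a, summed to 90.9 to 99.4 and 67.2 to 89.8 CPM in CD4 cells and to 71.8 to 75.5 and 70.3 to 85.6 CPM in CD8 cells. The part of these cells in the members' differences was not tested.

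Around their group means, log2 levels of some members moved together over the 24 libraries. Icos and Cd200 (Pearson r = 0.932), Btla and Cd200 (0.923) and Icos and Btla (0.914) had the highest correlations, and Tigit and Btla (-0.784) and Tigit and Cd200 (-0.731) the lowest. These points share libraries and the split by replicate number, and the values are a description. Of 9043 genes searched, those most like Cd200 in this measure were Igfbp7 (r = 0.979) and Sh3bgrl (0.959), those most like Icos were Nup160 and Rmdn3 (0.95 each), and those most like Btla were Slamf1 (0.913) and Igfbp7 (0.91). The phosphatase subunit gene Ppp1r16b (0.968) and the phosphatase gene Ptpn22 (0.963) were most like Tigit. Lag3 was nearest to the class Ib MHC gene H2-T23 (0.913) and to Grina (0.876), and Cd160 to Nt5e, which encodes CD73 (0.907), and Egr3 (0.907). The nearest genes were Esyt2 (0.877) and Fam102b (0.834) for Cd28, Btg2 (0.853) and Decr1 (0.835) for Pdcd1, Myo18a (0.826) and Hemk1 (0.803) for Ctla4 and, at very low counts, Strn4 (0.731) and Elob (0.695) for Havcr2.

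Partner genes of these receptors were read from 7 lists, in CD8 against CD4 wild type. Of 14 ligand genes 9 were tested, and 0 were higher and 5 lower in CD8 cells, with a median log2 change of -0.51 beside -0.015 over all genes tested, of which 31.2% were called in this comparison. The called ones included Cd274 (PD-L1, -1.19, SE 0.11), Pvr (the ligand of TIGIT and CD226, -1.04, SE 0.12) and Pdcd1lg2 (PD-L2, -0.67, SE 0.12). Of 12 other receptors 9 were tested, 3 higher and 3 lower, with a median of -0.29, including Vsir (VISTA, -0.69, SE 0.08), Cd5 (an inhibitor of antigen receptor signalling, -0.90, SE 0.13) and the collagen receptor gene Lair1 (2.49, SE 0.44).

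Among signalling genes, 5 of 16 costimulatory ones were higher and 4 lower, with a median log2 change of -0.06: Pik3cd, the catalytic subunit of the leukocyte PI3 kinase (0.93, SE 0.08), the kinase gene Tec (1.21, SE 0.21) and the adaptor gene Grap2 (1.27, SE 0.24) were higher. Of 12 inhibitory ones 0 were higher and 2 lower, with a median of -0.01: Ptpn11, which encodes the phosphatase SHP-2 (-0.42, SE 0.06), and Ubash3b, a phosphatase gene (-0.87, SE 0.13). The third by p, the ubiquitin ligase gene Cblb, did not pass (-0.40, SE 0.16, edgeR adjusted p = 0.0631). Of 5 genes of CTLA-4 traffic Trat1, which encodes an adaptor that helps CTLA-4 reach the surface, was lower (-3.06, SE 0.35), Ap2m1, a subunit of the clathrin adaptor that binds CTLA-4, was higher (0.18, SE 0.06), and Def6 did not pass (0.05, SE 0.07). The median of that list was 0.03, and 31.2% of all genes were called in this comparison.

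Of 4 genes of mRNA decay, 0 were higher and 2 lower (median -0.44): Zc3h12d (-0.67, SE 0.07) and Zc3h12a, which encodes Regnase-1, a nuclease that cuts Icos and Ctla4 mRNA (-0.68, SE 0.18), while Rc3h1, which encodes Roquin-1, a repressor of Icos mRNA, did not pass (-0.20, SE 0.10). Of 19 transcription factor genes 18 were tested, 3 higher and 6 lower (median -0.23), including Ikzf2 (Helios, 1.90, SE 0.26), Nr4a1 (-1.02, SE 0.15) and Nr4a3 (-0.76, SE 0.12), immediate early factors induced by the antigen receptor. Over the 7 lists, 73 of 82 genes were tested, with 12 higher and 23 lower in wild type (31.2% of all genes called), 14 higher and 27 lower in heterozygotes (35.0%) and 12 higher and 23 lower in knockouts (24.1%). Between genotypes edgeR called 0 of the 71 list genes tested in each of the 6 comparisons, with an unadjusted p under 0.05 for 4 in CD4 heterozygotes, 0 in CD4 knockouts, 0 in CD8 heterozygotes and 4 in CD8 knockouts against wild type, and for 1 in CD4 and 7 in CD8 knockouts against heterozygotes. The same held for 1103, 310, 220 and 364 of all genes in that order against wild type, and for 465 and 862 against heterozygotes. Genes tested were 12719 in CD4 and 12612 in CD8 cells.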

How the data were processed

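RNA was measured in 24 libraries. The submitters' processing notes name Trimmomatic 0.35, STAR 2.7.1a, DESeq2 1.26.0 and the build GRCm38. The authors deposited raw counts per gene for 55401 genes and a table of normalized signal for 20961 genes, which matched the counts divided by a factor of 0.840 to 1.558 per library. The sources used here do not give the strand setting of the counting. The 4 summary lines of the count table, 31.6% to 35.0% of all entries, were left out of library sizes. Of 36 pairs of replicates, 0 agreed within sampling noise (lowest chi-square per degree of freedom 2.78).

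Counts were filtered with filterByExpr, scaled by TMM and tested with edgeR 4.0.16 (R 4.3.3, quasi-likelihood), with Benjamini-Hochberg adjustment over all genes tested, 12719 in CD4, 12612 in CD8 and 13288 in all libraries. Genotypes were compared within the 12 libraries of a cell type, and cell types and interactions in all 24. Intervals are approximate: the SE was multiplied by a t quantile at 18 degrees of freedom, or 9 within a cell type. The comparisons of replicate sets also used 18, although their fit held further terms and so left fewer degrees of freedom. The degrees of freedom of the test itself were not used, so an interval and its p can differ near 0.05. Alternatives were RLE scaling, no filter, other samples in the fit, the replicate number as a block, replicate sets as a covariate, either pair of replicate numbers, DESeq2 1.42.0, limma 3.58.1 on log2(deposited value + 1), and leaving out each library. The comparison of replicates 3 and 4 with 1 and 2 was added after seeing the data. Fits were tested on simulated data drawn without a split by replicate number or pairing of libraries. That test therefore does not show how the fits behave with the split seen here. Same-numbered libraries deviated together within CD4 (r from 0.132 to 0.58 between genotypes) and between CD4 and CD8 (0.147 to 0.451), each over 0.1, and were treated as paired by number. Libraries of the other number in the same replicate pair correlated as highly within CD4 (0.115 to 0.598), and the own number was best for 2 of 4 in each pair of CD4 genotypes. Between CD4 and CD8 the other number gave 0.045 to 0.368. There the own number was best for 3 of 4 in wild type and in heterozygotes and 4 of 4 in knockouts. The members, gene lists and tests were chosen with earlier results of these data known. All 10 members are named, with the 2 genes nearest to each in likeness and up to 3 genes per list by lowest p. Gene lengths came from GENCODE M21, which matched 54349 IDs.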

Additional observations from a re-analysis of the deposited data

Results flagged for a closer look

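Havcr2 in CD8 wild-type replicate 3 lay far from the other 3 libraries of its group, at 0.8287 CPM against 0.317 to 0.378 CPM. Its counts are few, from 4 to 19 in CD8 libraries. Chance sets apart about 1 in 20 groups, and 60 groups were screened.

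The change from replicates 1 and 2 to replicates 3 and 4 differed between CD8 and CD4 cells for 5 members by a test of the difference itself (edgeR, all 24 libraries, log2 scale, CD8 minus CD4). It was 1.49 for Cd200, 1.00 for Ctla4, 0.65 for Icos, -0.53 for Pdcd1 and -1.04 for Cd160. Of all 13288 genes tested, 779 (5.86%) were called, and 406 to 1352 genes with 1 library left out. What the replicate numbers mark is not given in the labels, and the replicate grouping was chosen with these data known.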

How the results depend on the processing

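Members called between CD8 and CD4 cells numbered 5 to 7 in wild type, 5 to 6 in heterozygotes and 4 to 8 in knockouts when single libraries were left out, the 8 without CD8 knockout replicate 3. All genes called then ran from 3131 to 4008, 3845 to 4408 and 2640 to 3590, beside 4149, 4646 and 3198 with every library. In knockouts, replicate sets as a covariate gave 9 members and 4440 genes. Havcr2 was among these 9, among the 8, and among the 7 of wild type, which came without CD4 replicate 3. Nothing is read from its p-values. For CD4 heterozygotes against wild type, replicates 1 and 2 only gave 1 member. All genes called in that comparison ran from 11 to 264 over settings other than leaving out a library. The Pdcd1 change between cell types in knockouts became 0.0745 in replicates 1 and 2 only. Leaving out single libraries turned the sign of 3 uncalled log2 changes between replicate sets, which ran from -0.162 to 0.0193 for Lag3 and from -0.62 to 0.0462 for Havcr2 in CD4 cells and from -0.0703 to 0.0103 for Cd28 in CD8 cells. The causes were not tested. For the member changes recomputed (cell types, replicate sets, and the genotype changes with an unadjusted p under 0.05), under settings other than leaving out a library, 381 log2 changes of members kept direction and call, 34 newly passed and 10 no longer passed. Changes of Havcr2 were among those that newly passed.

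With the replicate number as a block, 7 members were called between CD8 and CD4 cells in each genotype, with 4903, 5336 and 3872 of all genes, and 0 members between genotypes. Havcr2 was among the 7 in knockouts. Within CD8 cells the numbers did not pair the genotypes (r from -0.226 to 0.403). All genes called for CD4 heterozygotes against wild type went from 11 to as many as 264, for CD8 knockouts against heterozygotes from 2 to 243 and for CD4 knockouts against heterozygotes from 2 to 13, and for the replicate set difference from 779 to 1280 with no filter. Counts of 3, 0.138 to 0.251 CPM, limit what can be said of Havcr2.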
